A study of Mus musculus with 6 samples.

Results

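The genes of the major histocompatibility complex (MHC) and their antigen presentation partners were followed in hair germ stem cells of the mouse. The set held every listed gene whose symbol begins with H2-, apart from names ending in -ps, together with B2m, Cd74, Ciita, Nlrc5, Tap1, Tap2 and Tapbp. This gave 49 of the 46517 genes listed. Of these, 35 belong to the class I pathway and 13 to the class II pathway. H2-Ke6 belongs to neither, since the gene encodes a steroid dehydrogenase that lies among the MHC genes.

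Class I molecules present peptides from inside the cell to CD8+ T cells and are found on nearly all nucleated cells. Each has a heavy chain bound to beta-2 microglobulin (B2m), and is loaded with peptides that the Tap1 and Tap2 transporter brings into the endoplasmic reticulum and that tapasin (Tapbp) helps to fit. Class II molecules present peptides taken up from outside to CD4+ T cells, and in skin are best known from Langerhans cells, dendritic cells and macrophages. The invariant chain (Cd74) escorts the class II alpha and beta chains to the endosome, where H2-DM exchanges its remnant for antigen and H2-DO restrains H2-DM. Nlrc5 and Ciita are the transactivators of class I and class II genes. Growing hair follicles are known for low class I expression.

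RNA was sequenced from hair germ stem cells sorted from back skin 3 days after depilation, in mice 60 days old, with 2 libraries in each of 3 groups. LEF1_TCF7dKO mice carried Lef1fl/fl and Tcf7-/-, LEF1cKO mice carried Lef1fl/fl, and WT mice carried neither. Mice of all 3 groups also had Sox9-CreER, an inducible Cre under Sox9 control, and the R26-lox-stop-lox-YFP reporter, so Lef1 loss was limited to cells with Cre activity, whereas Tcf7 was null in the whole animal. The sort used YFP and the surface proteins P-cadherin, CD34, Sca-1 and integrin b1. The labels give the sex as mixed and do not say whether replicates came from separate animals, so p-values measure only the spread between these libraries, which may be technical.

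Depth was 40480694 to 63220022 expected counts per library, and 19640 genes were tested, among them 33 of the 49 members. The targeted genes were lower in the double knockout, with Lef1 at 9.22 and 9.42 TPM in LEF1_TCF7dKO, 13.51 and 8.37 TPM in LEF1cKO, and 21.44 and 20.36 TPM in WT. Lef1 fell in LEF1_TCF7dKO against WT by 1.27 ± 0.25 on the log2 scale (adjusted p = 0.0122, at most 0.0827 with 1 library left out), and Tcf7 by 1.37 ± 0.21 (adjusted p = 0.00641), whereas for Lef1 in LEF1cKO the value was -0.92 ± 0.25 (adjusted p = 0.282). Levels are in TPM, the authors' transcript abundance scaled by gene length and by library. Differences are log2 fold changes ± SE from edgeR's quasi-likelihood test on counts, with Benjamini-Hochberg adjustment over all genes tested. "Rose" and "fell" mean an adjusted p under 0.05.

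Promoter sequences are given first because the 2 classes are known to be controlled through related elements. Class I and class II promoters share an upstream module with an X box, whose second part often holds a cAMP response element, and a Y box, a CCAAT sequence bound by NF-Y. Class I promoters also carry sites for NF-kB and interferon-regulated factors. Of the 49 members, 34 matched a RefSeq promoter of build GRCm38.p6. Shown 5′ to 3′ are the 150 bases that precede the annotated start, for 3 class I members and 2 classical class II chains among those that matched. Capitals mark 4 motifs on either strand. They are CCAAT of the Y box, the TGACG of a cAMP response element, an interferon response core (a pair of GAAA with any 2 bases between them) and an NF-kB core (GGGA, then any 4 bases, then CC). The intervals are chr17:34000348-34000497 (minus strand) for H2-K1, chr17:35439005-35439154 (plus) for H2-Q7, chr2:122147537-122147686 (plus) for B2m, chr17:34287824-34287973 (minus) for H2-Aa and chr17:34305717-34305866 (plus) for H2-Eb1.
H2-K1: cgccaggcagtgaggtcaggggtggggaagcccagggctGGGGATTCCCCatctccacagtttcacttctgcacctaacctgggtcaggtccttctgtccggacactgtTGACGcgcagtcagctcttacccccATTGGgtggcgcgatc
H2-Q7: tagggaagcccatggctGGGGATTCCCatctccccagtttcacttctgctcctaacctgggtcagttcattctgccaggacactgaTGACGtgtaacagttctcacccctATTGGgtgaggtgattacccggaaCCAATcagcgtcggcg
B2m: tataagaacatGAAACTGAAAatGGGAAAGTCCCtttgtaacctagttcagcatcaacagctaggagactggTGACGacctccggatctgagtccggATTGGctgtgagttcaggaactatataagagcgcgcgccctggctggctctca
H2-Aa: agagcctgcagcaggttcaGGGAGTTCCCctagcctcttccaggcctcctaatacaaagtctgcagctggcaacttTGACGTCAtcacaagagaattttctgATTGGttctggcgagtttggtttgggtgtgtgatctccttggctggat
H2-Eb1: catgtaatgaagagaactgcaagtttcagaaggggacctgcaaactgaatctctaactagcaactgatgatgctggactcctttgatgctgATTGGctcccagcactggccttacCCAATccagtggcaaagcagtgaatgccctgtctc

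In the windows of 300 bases, 250 before the start and 50 after it, CCAAT stood on either strand in 88% of 25 class I promoters and 87.5% of 8 class II promoters, against 38% of 27025 promoters of all genes. TGACG stood in 52% of class I, 12.5% of class II and 20.9% of all promoters. The NF-kB core stood in 40% of class I, 25% of class II and 20.5% of all promoters, and the interferon response core in 12% of class I, 0% of class II and 3.49% of all promoters. Only exact matches to each core were marked and counted. An interferon response element of another form would thus be missed in the stretches and in these shares. In the stretches shown, H2-K1, H2-Q7 and the class II gene H2-Aa hold the NF-kB core, TGACG and CCAAT in that order, and B2m has an exact interferon response core before them. In H2-Aa, the only class II promoter of the 8 with TGACG, that motif overlaps its own other strand, as TGACGTCA. H2-Eb1 shows only CCAAT.

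In LEF1_TCF7dKO against WT, 8 of 9 tested class II members rose and 0 fell, whereas 6 of 23 class I members rose and 2 fell. Among all genes tested, 18.0% rose and 19.6% fell in this comparison. The median difference was 2.78 on the log2 scale over the class II members and 0.85 over the class I members, beside 0.01 over all genes. In these bulk samples, more cells of a type and more RNA per cell cannot be told apart. The class II chains together reached 669 and 654 TPM in LEF1_TCF7dKO, against 149 and 273 in LEF1cKO and 104 and 49.9 in WT, a mean 8.59 times higher in the double knockout than in WT. The class I heavy chains together reached 2856 and 3609 TPM in LEF1_TCF7dKO, against 917 and 2182 in LEF1cKO and 1488 and 1623 in WT, a mean 2.08 times higher in the double knockout than in WT.

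**Figure D1:**
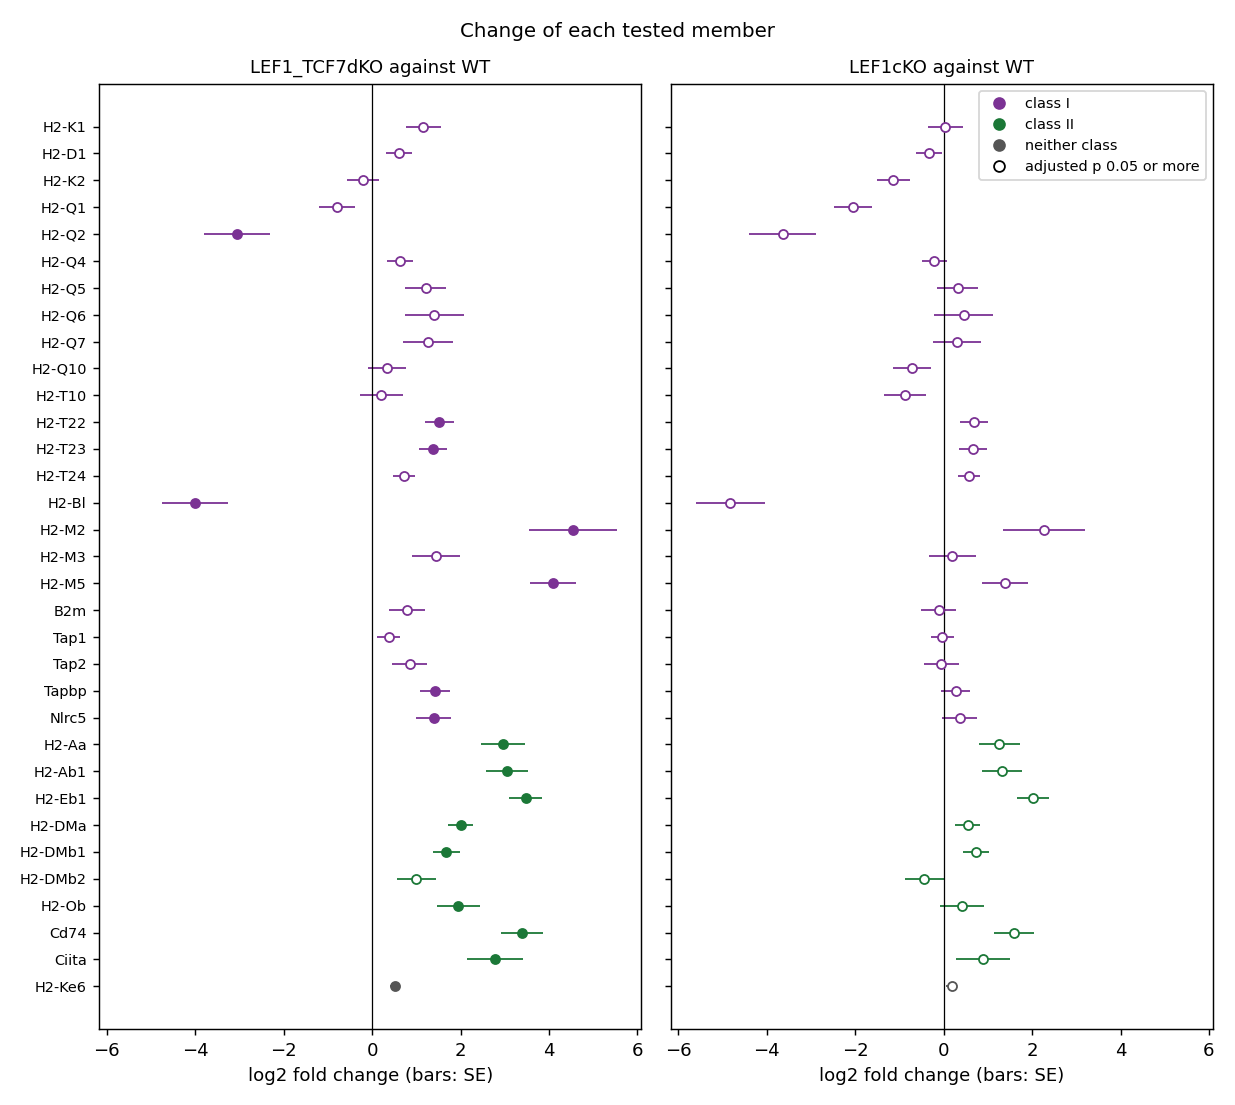
Log2 fold change of each of the 33 tested members against WT, in LEF1_TCF7dKO (left) and LEF1cKO (right), from edgeR with 2 libraries per group; bars are the SE, and filled points have an adjusted p under 0.05. In the left panel 8 of 9 class II points are filled and lie above 0, while in the right panel no class I or class II point is filled.

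The 3 classical class II chains carried most of the class II signal. H2-Aa, the alpha chain of I-A, had 211.83 and 198.49 TPM in LEF1_TCF7dKO, 45.34 and 77.79 in LEF1cKO, and 36.07 and 13.59 in WT. H2-Ab1, its beta chain, had 219.34 and 213.94 TPM in LEF1_TCF7dKO, 40.24 and 85.71 in LEF1cKO, and 31.62 and 14.18 in WT. H2-Eb1, the beta chain of I-E, had 188.98 and 182.86 TPM in LEF1_TCF7dKO, 48.16 and 82.95 in LEF1cKO, and 20.25 and 10.31 in WT. For all 3 the groups were separate, with both double knockout libraries highest and close to each other. Both LEF1cKO libraries stood in between, and WT replicate 2 was lowest. Such separation is common with 2 libraries per group. Over all genes tested, 43.4% had both double knockout libraries above both WT libraries. The share was 35% for the double knockout above LEF1cKO and 28.3% for LEF1cKO above WT. Against WT the double knockout rose by 2.96 ± 0.49 for H2-Aa (adjusted p = 0.00777), 3.05 ± 0.47 for H2-Ab1 (adjusted p = 0.00664) and 3.47 ± 0.38 for H2-Eb1 (adjusted p = 0.00357, edgeR).

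Cd74, the invariant chain, was the most abundant class II gene. It had 548.43 and 535.81 TPM in LEF1_TCF7dKO, 104.84 and 197.91 in LEF1cKO, and 66.66 and 27.3 in WT, again with no overlap between groups. It rose by 3.39 ± 0.48 in LEF1_TCF7dKO against WT (edgeR adjusted p = 0.0055). Cd74 was also higher relative to its partners. Its level over the sum of H2-Aa, H2-Ab1 and H2-Eb1 was 0.884 and 0.9 in LEF1_TCF7dKO, 0.784 and 0.803 in LEF1cKO, and 0.758 and 0.717 in WT, without overlap and not tested.

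Ciita, the class II transactivator, was far less abundant, at 2.15 and 2.07 TPM in LEF1_TCF7dKO, 0.21 and 0.89 in LEF1cKO, and 0.34 and 0.22 in WT. Both double knockout libraries stood above the other 4, and LEF1cKO overlapped WT. Ciita rose by 2.78 ± 0.64 against WT (edgeR adjusted p = 0.0195).

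The peptide editors were lower in abundance. H2-DMa had 22.51 and 27.31 TPM in LEF1_TCF7dKO, 6.37 and 10.36 in LEF1cKO, and 6.21 and 4.72 in WT, and rose by 2.0 ± 0.29 against WT (adjusted p = 0.00582, edgeR). H2-DMb1, a beta chain of the same molecule, had 21.4 and 23.81 TPM in LEF1_TCF7dKO, 7.55 and 13.39 in LEF1cKO, and 7.23 and 5.03 in WT, and rose by 1.68 ± 0.30 (adjusted p = 0.0091, edgeR). Its neighbour H2-DMb2 had 3.89 and 6.2 TPM in LEF1_TCF7dKO, 1.18 and 2.41 in LEF1cKO, and 2.37 and 1.88 in WT. The H2-DMb2 difference of 1.0 ± 0.44 did not pass (adjusted p = 0.121), and the 2 DMb genes share 22.3% and 24.3% of their 51-base windows with other genes, so reads may be split between them. H2-Ob, the beta chain of H2-DO, stayed under 1 TPM in all 6 libraries yet rose by 1.95 ± 0.48 (adjusted p = 0.024, edgeR), at 0.73 and 0.81 TPM in LEF1_TCF7dKO, 0.14 and 0.24 in LEF1cKO, and 0.15 and 0.08 in WT. H2-Eb2, H2-Oa, H2-Pa and H2-Pb were too low to be tested.

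**Figure D2:**
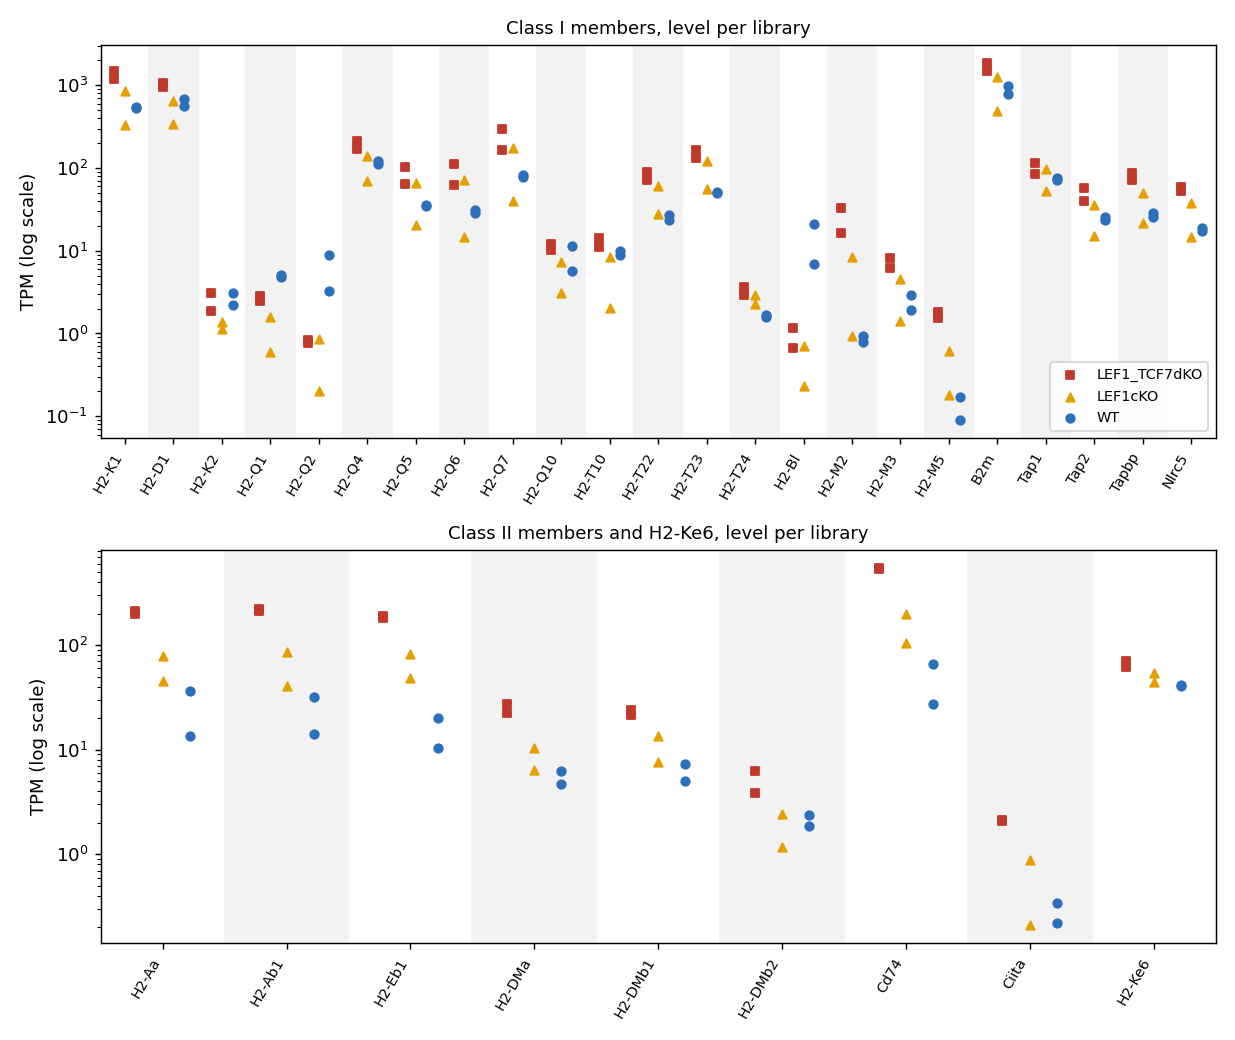
TPM (log axis) of the 32 members with a mean of at least 1 TPM in a group, 1 point per library, for class I (top) and for class II with H2-Ke6 (bottom). The H2-Aa, H2-Ab1, H2-Eb1 and Cd74 points of the 3 groups do not overlap. Most class I genes have the LEF1cKO libraries spread around WT. Of all genes tested, 43.4% have both double knockout libraries above both WT libraries.

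The classical class I heavy chains were abundant in every library. H2-K1 had 1183.67 and 1489.88 TPM in LEF1_TCF7dKO, 335.1 and 856.94 in LEF1cKO, and 549.45 and 525.78 in WT. H2-D1 had 946.7 and 1060.69 TPM in LEF1_TCF7dKO, 341.71 and 653.17 in LEF1cKO, and 567.12 and 687.81 in WT. Their partner B2m had 1490.28 and 1891 TPM in LEF1_TCF7dKO, 486.7 and 1267.23 in LEF1cKO, and 988.43 and 785.68 in WT. In all 3 both double knockout libraries were highest, and LEF1cKO replicate 1 was the lowest of the 6. Over all genes tested, both double knockout libraries lay above both WT libraries for 43.4%, and above both LEF1cKO libraries for 35%. The differences between LEF1_TCF7dKO and WT were 1.16 ± 0.39 for H2-K1 (adjusted p = 0.0618), 0.61 ± 0.30 for H2-D1 (adjusted p = 0.16) and 0.79 ± 0.40 for B2m (adjusted p = 0.171, edgeR), none of which passed in this fit. With 1 library left out they stayed positive, at 0.96 to 1.35, 0.45 to 0.77 and 0.58 to 1.0 in that order. A fit of only these 2 groups called 18 class I members, 15 higher and 3 lower, against 8 in the fit of all 6 libraries. The share of all genes called in that fit is not given here.

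Peptide loading genes divided. Tapbp, the bridge between the transporter and the empty class I molecule, had 72.23 and 87.93 TPM in LEF1_TCF7dKO, 21.66 and 49.71 in LEF1cKO, and 28.75 and 25.42 in WT, and rose by 1.42 ± 0.33 against WT (adjusted p = 0.02, edgeR). Nlrc5, the class I transactivator, had 52.9 and 59.64 TPM in LEF1_TCF7dKO, 14.67 and 38.01 in LEF1cKO, and 19.1 and 17.35 in WT, and rose by 1.39 ± 0.40 (adjusted p = 0.0389, edgeR). Both genes had their double knockout libraries above all others, with LEF1cKO on either side of WT. The transporter subunits did not pass. Tap1 had 84.2 and 115.26 TPM in LEF1_TCF7dKO, 52.36 and 98.52 in LEF1cKO, and 76.76 and 71.11 in WT (0.38 ± 0.26, adjusted p = 0.291, edgeR). Tap2 had 39.98 and 58.18 TPM in LEF1_TCF7dKO, 15.01 and 35.87 in LEF1cKO, and 25.61 and 23.87 in WT (0.85 ± 0.40, adjusted p = 0.143, edgeR).

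Of the 18 tested class I heavy chains, 4 rose and 2 fell in LEF1_TCF7dKO against WT, none of them H2-K1 or H2-D1. Among all genes tested, 18.0% rose and 19.6% fell. H2-T23 encodes Qa-1, a ligand of the NKG2A receptor of natural killer cells, and had 133.19 and 165.04 TPM in LEF1_TCF7dKO, 55.27 and 120.36 in LEF1cKO, and 49.61 and 51 in WT (1.38 ± 0.32, adjusted p = 0.0199, edgeR). H2-T22, a ligand of some gamma-delta T cell receptors, had 72.61 and 90.66 TPM in LEF1_TCF7dKO, 27.72 and 60.82 in LEF1cKO, and 27.07 and 23.72 in WT (1.52 ± 0.33, adjusted p = 0.0161, edgeR). In both genes the WT libraries were the lowest 2 in TPM, for H2-T22 only narrowly (27.07 in WT replicate 1 against 27.72 in LEF1cKO replicate 1). Over all genes tested, both double knockout libraries lay above both WT libraries for 43.4%, and both LEF1cKO libraries for 28.3%. H2-T22 shares 30.5% of its 51-base windows with H2-T10, which had 11.07 and 14.34 TPM in LEF1_TCF7dKO, 2.06 and 8.37 in LEF1cKO, and 9.85 and 8.91 in WT, and did not pass (0.21 ± 0.48, adjusted p = 0.754, edgeR). The summed counts of H2-T10 and H2-T22, which do not depend on how reads were split between these genes, came to 88.9 and 111 CPM (counts scaled by library total) in LEF1_TCF7dKO, 32.9 and 74.7 in LEF1cKO, and 43 and 36.9 in WT.

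The largest class I rises belonged to genes of the M region. H2-M2 had 16.54 and 32.63 TPM in LEF1_TCF7dKO, 0.93 and 8.37 in LEF1cKO, and 0.93 and 0.8 in WT, and rose by 4.54 ± 0.99 against WT (adjusted p = 0.0165, edgeR). H2-M5 had 1.81 and 1.52 TPM in LEF1_TCF7dKO, 0.18 and 0.62 in LEF1cKO, and 0.17 and 0.09 in WT, and rose by 4.09 ± 0.52 (adjusted p = 0.00447, edgeR). For H2-M2, LEF1cKO replicate 1 was at the WT level and replicate 2 well above it. H2-M3, which presents formylated bacterial peptides, had 6.11 and 8.24 TPM in LEF1_TCF7dKO, 1.42 and 4.51 in LEF1cKO, and 2.9 and 1.91 in WT, and did not pass (1.44 ± 0.54, adjusted p = 0.0798, edgeR). The other 10 M region members were not tested.

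A pair of class I genes went the other way. H2-Bl, a T region gene annotated as a polymorphic pseudogene, had 1.15 and 0.66 TPM in LEF1_TCF7dKO, 0.23 and 0.71 in LEF1cKO, and 6.93 and 21.06 in WT, and fell by 4.0 ± 0.75 in the double knockout (adjusted p = 0.0107, edgeR). H2-Q2 had 0.76 and 0.84 TPM in LEF1_TCF7dKO, 0.2 and 0.86 in LEF1cKO, and 3.24 and 8.83 in WT, and fell by 3.06 ± 0.74 (adjusted p = 0.0223, edgeR). In both genes all 4 knockout libraries lay below both WT libraries, and WT replicate 2 was well above WT replicate 1. Over all genes tested, 30.7% had both double knockout libraries below both WT libraries. The share for LEF1cKO below WT was 13.4%. In LEF1cKO against WT the values were -4.82 ± 0.79 for H2-Bl (adjusted p = 0.0889) and -3.64 ± 0.76 for H2-Q2 (adjusted p = 0.166, edgeR), which did not pass. H2-Q1, which shares 12.6% of the windows of H2-Q2, had 2.48 and 2.85 TPM in LEF1_TCF7dKO, 0.59 and 1.57 in LEF1cKO, and 4.77 and 5.13 in WT, also lower in all 4 knockout libraries (double knockout against WT -0.79 ± 0.41, adjusted p = 0.179, edgeR). H2-Q1 and H2-Q2 share 14.7% and 15.6% of their windows with other genes, and H2-Bl 9.02%.

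The remaining Q region and related genes did not pass in any comparison. H2-Q7 encodes Qa-2 and had 165.02 and 294.9 TPM in LEF1_TCF7dKO, 39.53 and 175.08 in LEF1cKO, and 78.58 and 83.19 in WT (1.26 ± 0.56 against WT). H2-Q4 had 170.03 and 214.86 TPM in LEF1_TCF7dKO, 70.04 and 139.8 in LEF1cKO, and 113.55 and 121.76 in WT (0.63 ± 0.29). H2-Q6 had 61.66 and 111.16 TPM in LEF1_TCF7dKO, 14.8 and 72.28 in LEF1cKO, and 28.36 and 30.81 in WT (1.41 ± 0.67). These 3 had both double knockout libraries above WT and a wide gap between the LEF1cKO libraries, as did H2-Q5, at 65.03 and 103.78 TPM in LEF1_TCF7dKO, 20.73 and 66.63 in LEF1cKO, and 35.3 and 35.18 in WT. H2-Q5, H2-Q6 and H2-Q7 share 35.5%, 31.2% and 26% of their windows with other genes, so their single values are uncertain. The 8 H2-Q genes summed to 475 and 741 TPM in LEF1_TCF7dKO, 149 and 464 in LEF1cKO, and 269 and 297 in WT.

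H2-Q10 was lower, at 10.14 and 12.17 TPM in LEF1_TCF7dKO, 3.11 and 7.36 in LEF1cKO, and 5.69 and 11.4 in WT. H2-K2 had 3.12 and 1.88 TPM in LEF1_TCF7dKO, 1.14 and 1.37 in LEF1cKO, and 2.21 and 3.07 in WT. H2-T24 had 3.69 and 2.9 TPM in LEF1_TCF7dKO, 2.3 and 2.95 in LEF1cKO, and 1.58 and 1.68 in WT. In H2-Q10 and H2-K2 the double knockout overlapped WT, and in H2-T24 it lay above it. H2-Ke6, the gene of neither class, had 61.85 and 69.8 TPM in LEF1_TCF7dKO, 44.57 and 54.4 in LEF1cKO, and 40.41 and 41.44 in WT, and rose by 0.52 ± 0.12 against WT (adjusted p = 0.0216, edgeR), although it shares 70.3% of its windows with another annotated gene. The 16 members that were not tested, 12 of class I and 4 of class II, reached at most 0.54 TPM in any library, and 7 of them were listed at 0 counts throughout.

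Loss of Lef1 alone gave no call in either class. In LEF1cKO against WT, 0 of 23 class I and 0 of 9 class II members passed in edgeR, where 0.224% of all genes rose and 0.377% fell. At an unadjusted p under 0.05 there were 6 class I and 5 class II members, beside 9.58% of all genes. DESeq2 called 3 class I members, all lower, and 2 class II members, both higher, where it called 1.94% of all genes higher and 1.37% lower. The median difference was 0.04 over class I and 0.89 over class II members. H2-Eb1 had the lowest adjusted p of the class II members, with a difference of 2.02 ± 0.36 (adjusted p = 0.108, edgeR), and for Cd74 the difference was 1.60 ± 0.45 (adjusted p = 0.305).

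Between the knockouts, 5 of 9 class II and 2 of 23 class I members rose in LEF1_TCF7dKO against LEF1cKO, where 11.2% of all genes rose and 14.1% fell. The class II genes were H2-Aa (1.70 ± 0.47, adjusted p = 0.0453), H2-Ab1 (1.73 ± 0.45, adjusted p = 0.0384), H2-Eb1 (1.45 ± 0.35, adjusted p = 0.0318), H2-DMa (1.46 ± 0.29, adjusted p = 0.0207) and Cd74 (1.80 ± 0.45, adjusted p = 0.0355, edgeR). The class I genes were Tapbp (1.16 ± 0.33, adjusted p = 0.0486) and H2-M5 (2.71 ± 0.47, adjusted p = 0.0158, edgeR). Median differences were 1.55 for class II and 0.94 for class I, beside 0.01 over all genes. Each pair of these comparisons shares a group, so their values are not independent of each other.

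**Figure D3:**
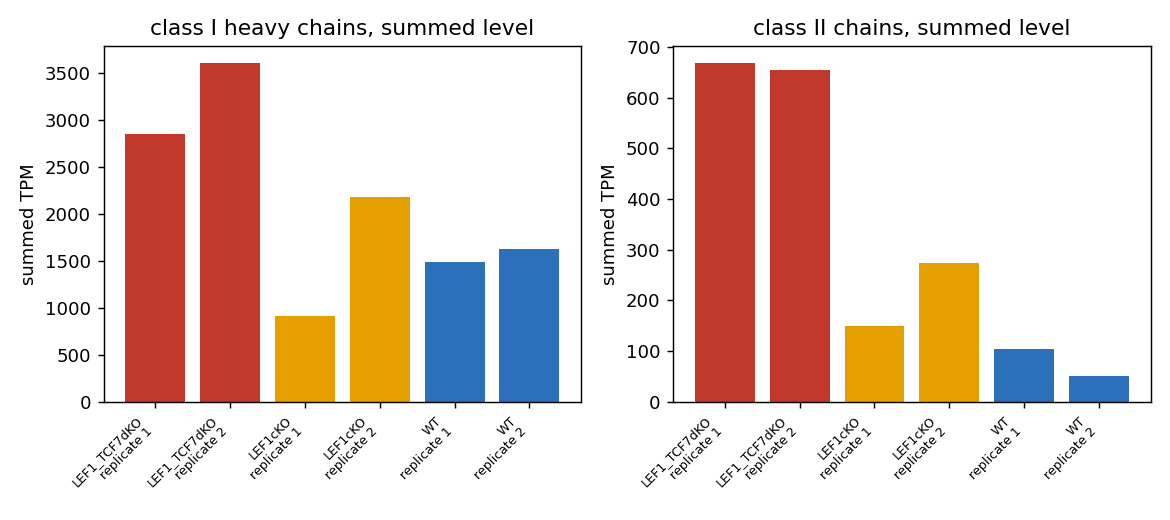
Summed TPM of the 30 class I heavy chain genes (left) and the 9 class II chain genes (right) in each library. LEF1cKO replicate 1, at 917 TPM, has the lowest class I sum of the 6 libraries, while its class II sum of 149 TPM lies above both WT libraries.

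The balance of the classes differed by group. Class II chains amounted to 23.4% and 18.1% of the class I heavy chain level in LEF1_TCF7dKO, 16.3% and 12.5% in LEF1cKO, and 7.0% and 3.08% in WT. The groups did not overlap in these 6 values, and the ratio was not tested. An exact permutation test of 2 libraries against 2 cannot give a two-sided p below 0.333. B2m was at 0.7 and 0.741 times the sum of H2-K1 and H2-D1 in LEF1_TCF7dKO, 0.719 and 0.839 in LEF1cKO, and 0.885 and 0.647 in WT, and the groups overlapped.

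The LEF1cKO libraries disagreed with each other over the whole set. All 23 tested class I members and all 9 class II members were higher in replicate 2 than in replicate 1, with a median log2 ratio of 1.13 for class I and 0.81 for class II, against 60.9% and 0.08 for all genes. The same libraries differ in sex-linked genes, with Xist at 0.66 TPM in LEF1cKO replicate 1 and 309.23 to 379.96 TPM in the other 5 libraries, and Ddx3y at 38.82 TPM in LEF1cKO replicate 1 and at most 0.1 TPM in the others. Whether the difference in MHC levels goes with the sex of the animals was not tested. In WT all 9 class II members were lower in replicate 2, with a median log2 ratio of -0.43, while class I members had a median of -0.01. Of all genes, 42.1% were higher in WT replicate 2, with a median of -0.03. In LEF1_TCF7dKO, 19 of 23 class I members were higher in replicate 2, with a median of 0.32, and 4 of 9 class II members. For all genes the values there were 48.1% and -0.01.

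The class I count changed with the libraries in the fit. Shares of all genes called in the fits below are not given here. A shift particular to class I therefore cannot be told from a general one. Against WT the double knockout had 8 class I calls with all 6 libraries, 1 without either of its own libraries, 3 without WT replicate 1 and 2 without WT replicate 2, but 18 without either LEF1cKO library. The class II count was 8 with all libraries, 8 without either LEF1cKO library, 6 without either double knockout library or WT replicate 1, and 5 without WT replicate 2. H2-Aa, H2-Ab1, H2-Eb1, Cd74, H2-DMa and H2-M5 passed in each of these fits. Ciita, H2-Ob, Tapbp, Nlrc5, H2-T22, H2-T23, H2-M2 and H2-Ke6 did not pass without any 1 of the double knockout or WT libraries, at adjusted p of at most 0.114, 0.176, 0.109, 0.166, 0.0963, 0.0962, 0.096 and 0.152 in that order. H2-DMb1 did not pass without WT replicate 2 (adjusted p = 0.0701), H2-Bl without either double knockout library (at most 0.0653), and H2-Q2 without those or WT replicate 2 (at most 0.125). Between the knockouts, 0 class II members passed without either double knockout library or LEF1cKO replicate 1, 7 without LEF1cKO replicate 2 and 5 without either WT library. The class I count there was 19 without LEF1cKO replicate 2, 0 without double knockout replicate 1, and 1 without any other single library.

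Transcripts of antigen-presenting cells moved in the same direction as class II. Of 20 markers of Langerhans cells, dendritic cells and macrophages, 17 rose and 0 fell in LEF1_TCF7dKO against WT, with a median difference of 3.25. Of 12 leukocyte markers 11 rose, with a median of 2.95. Among all genes, 18.0% rose and 19.6% fell. Csf1r, the receptor that macrophages and Langerhans cells depend on, had 33.29 and 21.99 TPM in LEF1_TCF7dKO, 8.16 and 8.19 in LEF1cKO, and 2.97 and 1.19 in WT (3.49 ± 0.44, adjusted p = 0.00436, edgeR). Cd207, the Langerhans cell lectin, had 6.54 and 9.34 TPM in LEF1_TCF7dKO, 2.14 and 2.58 in LEF1cKO, and 1.12 and 0.84 in WT (2.88 ± 0.32, adjusted p = 0.00365, edgeR). Both had the order of groups seen in the class II chains. The summed level of the 20 markers was 637 to 682 TPM in LEF1_TCF7dKO, 344 to 380 in LEF1cKO and 240 to 272 in WT, of which Epcam, also an epithelial gene, made up 121.62 and 162.29 TPM in LEF1_TCF7dKO and 163.96 and 180.64 TPM in WT without passing. None of the 20 was at 0 in all libraries, although Cx3cr1 stayed at or below 0.22 TPM. Leukocyte markers summed to 317 to 370 TPM in LEF1_TCF7dKO, 177 to 253 in LEF1cKO and 118 to 125 in WT, of which Arhgdib, the marker that did not pass, made up 134.24 and 207.41 TPM in LEF1_TCF7dKO and 86.48 and 92.45 TPM in WT.

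The class II level relative to such transcripts depended on the marker. H2-Aa, H2-Ab1 and H2-Eb1 together were divided by each of the 32 myeloid and leukocyte markers in turn. Double knockout values lay above both WT values for 11 markers, lay below both for 9 and overlapped them for 12. A marker that rises less than the chains gives a higher ratio by arithmetic, and a marker that rises more a lower one. Epcam, Mfge8, Cx3cr1 and Arhgdib, among the 11, had not passed in LEF1_TCF7dKO against WT, whereas the 9 markers below had all risen. H2-Aa, H2-Ab1 and H2-Eb1 together were 18.6 and 27.1 times the level of Csf1r in LEF1_TCF7dKO, 16.4 and 30.1 times in LEF1cKO, and 29.6 and 32 times in WT. Relative to Ptprc, the pan-leukocyte antigen CD45, they were at 62.3 and 96.5 in LEF1_TCF7dKO, 104 and 85.3 in LEF1cKO, and 96.6 and 131 in WT. Relative to Tyrobp, a signalling adaptor of myeloid cells, they were at 22.5 and 26.1 in LEF1_TCF7dKO, 15 and 24.8 in LEF1cKO, and 23.9 and 38.5 in WT. Both double knockout values lay below both WT values for Csf1r and Ptprc, and the groups overlapped for Tyrobp. Relative to Cd68, a lysosomal protein of macrophages, the sum was at 21 and 24.8 in LEF1_TCF7dKO, 12.7 and 20.1 in LEF1cKO, and 15.8 and 8.48 in WT, with the double knockout above the rest. The part of such cells in the class II levels was not tested.

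**Figure D4:**
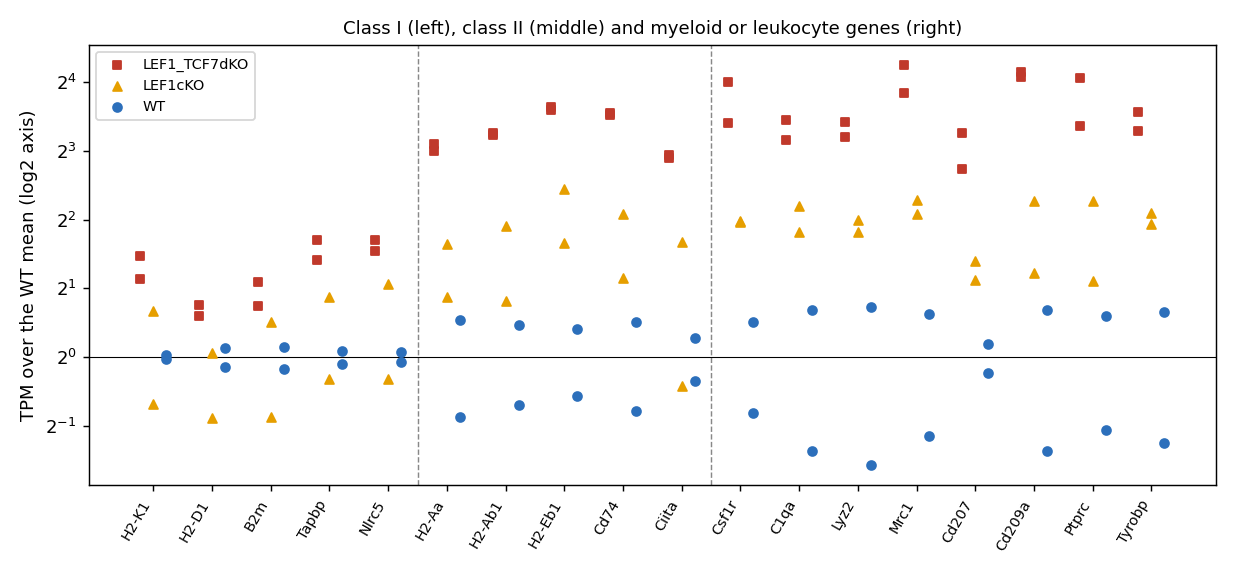
TPM of class I genes (left), class II genes (middle) and myeloid or leukocyte genes (right) in each library, divided by the WT mean of that gene, on a log2 axis. H2-K1 stands at 2.2 and 2.77 times the WT mean in LEF1_TCF7dKO, Cd74 at 11.7 and 11.4 times and the macrophage gene Mrc1 at 19 and 14.3 times.

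Markers of other cell types moved as well, to unlike degrees. Among all genes, 18.0% rose and 19.6% fell in LEF1_TCF7dKO against WT. In LEF1_TCF7dKO against WT, 9 of 10 fibroblast markers rose (summed level 1762 to 2071 TPM in LEF1_TCF7dKO, 560 to 1074 in LEF1cKO, 300 to 448 in WT). So did 10 of 12 epidermal keratinocyte markers (13465 to 14201 TPM, 3556 to 3647 and 1560 to 1842 in the same order) and 8 of 10 endothelial markers (43.4 to 155 TPM, 30.2 to 31.6 and 25.9 to 27.7). Of 13 tested T, B and natural killer cell markers 2 rose and 1 fell, and the B cell genes Cd79a and Cd79b stayed at or below 0.49 TPM. Of 15 hair germ and follicle stem cell markers 5 rose and 5 fell, which includes genes for proteins used in the sort. Cdh3, which encodes P-cadherin, fell by 0.93 ± 0.18 (edgeR adjusted p = 0.0109, at most 0.0658 with 1 library left out). Ly6a, which encodes Sca-1, rose by 2.22 ± 0.41 (edgeR adjusted p = 0.00968, at most 0.0561 with 1 library left out), and Cd34 by 1.54 ± 0.28 (edgeR adjusted p = 0.00954, at most 0.0588 with 1 library left out). In LEF1cKO against WT, 2 epidermal keratinocyte markers, Krt77 and Krt78, were the only genes of these lists to pass. The part of these cells in the class I levels was not tested.

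Of 28 tested antigen processing genes outside the set, 10 rose and 2 fell in LEF1_TCF7dKO against WT (all genes: 18.0% and 19.6%), with a median of 0.33, and 0 passed in LEF1cKO against WT. H60c, a ligand of NKG2D known from skin, had 24.05 and 22.17 TPM in LEF1_TCF7dKO, 5.42 and 9.18 in LEF1cKO, and 5.27 and 4.74 in WT (2.07 ± 0.23, adjusted p = 0.00371, edgeR). Hfe, which pairs with B2m and controls iron uptake, rose by 2.26 ± 0.27 (adjusted p = 0.00408), and Fcgrt, the neonatal Fc receptor and another B2m partner, by 1.82 ± 0.26 (adjusted p = 0.00555, edgeR). Cd1d1 and Mr1, which also pair with B2m, did not pass (0.24 ± 0.28, adjusted p = 0.531, and -0.04 ± 0.13, adjusted p = 0.851). March1, a ubiquitin ligase that removes class II from the surface, rose by 2.89 ± 0.33 (adjusted p = 0.00386, edgeR), and Ctss, the protease that trims the invariant chain, by 3.38 ± 0.58 (adjusted p = 0.00814).

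The immunoproteasome subunits Psmb8 and Psmb9 did not pass. Psmb8, encoded next to Tap1, had 46.55 and 88.55 TPM in LEF1_TCF7dKO, 15.87 and 57.1 in LEF1cKO, and 45.38 and 40.58 in WT (0.48 ± 0.55, adjusted p = 0.521, edgeR). Psmb9 had 33.06 and 47.72 TPM in LEF1_TCF7dKO, 18.78 and 51.43 in LEF1cKO, and 45.3 and 37.22 in WT (-0.09 ± 0.44, adjusted p = 0.894, edgeR). The groups overlapped for Psmb9. For Psmb8 the double knockout libraries lay above WT, replicate 1 narrowly and replicate 2 clearly. The interferon-inducible activator subunit Psme1 rose by 0.67 ± 0.17 (edgeR adjusted p = 0.0258, 0.0581 with the effective length offset and at most 0.157 with 1 library left out). Its partner Psme2 differed by 0.71 ± 0.31 (edgeR adjusted p = 0.123, and 0.00688 to 0.353 with 1 library left out). Psme3, a subunit of a nuclear proteasome activator, fell by 0.57 ± 0.12 (edgeR adjusted p = 0.014, at most 0.126 with 1 library left out). Ulbp1, a further NKG2D ligand, had 1.35 and 1.22 TPM in LEF1_TCF7dKO, 1.21 and 1.17 in LEF1cKO, and 2.92 and 6.08 in WT, and fell by 1.99 ± 0.40 (edgeR adjusted p = 0.0129, at most 0.0765 with 1 library left out).

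Of 29 genes of interferon signalling and MHC transactivation, 9 rose and 5 fell in LEF1_TCF7dKO against WT, where 18.0% of all genes rose and 19.6% fell. Ifngr1, the binding chain of the interferon-gamma receptor, had 50.16 and 65.67 TPM in LEF1_TCF7dKO, 10.67 and 19.33 in LEF1cKO, and 12.86 and 11.23 in WT (2.12 ± 0.27, adjusted p = 0.00456, edgeR). Irf8, a transcription factor of myeloid cells, rose by 2.47 ± 0.36 (adjusted p = 0.00572, edgeR). Ezh2, which places a repressive histone mark, fell by 1.08 ± 0.16 (adjusted p = 0.0063, edgeR).

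Genes for proteins that bind the X and Y boxes differed in direction. Nfyb, an NF-Y subunit that binds the CCAAT sequence, had 42.95 and 46.31 TPM in LEF1_TCF7dKO, 83.56 and 65.58 in LEF1cKO, and 82.55 and 88.38 in WT, and fell by 0.92 ± 0.14 (adjusted p = 0.00609, edgeR). Of the RFX complex of the X box, Rfxap fell by 0.70 ± 0.14 (adjusted p = 0.0114), Rfx5 rose by 0.41 ± 0.12 (adjusted p = 0.0389), and Rfxank differed by 0.03 ± 0.12 (adjusted p = 0.851, edgeR). The Rfxap difference was smaller with the effective length offset, at -0.36. With limma it was -0.22 on log2(TPM + 1) (adjusted p = 0.087) and -0.23 on log2(TPM + 0.1) (adjusted p = 0.0934). The calls of Rfxap and Rfx5 were lost with 1 library left out (adjusted p of at most 0.101 and 0.212) and with the effective length offset (0.0586 and 0.061). Irf1, a transcription factor of the interferon response, differed by -0.21 ± 0.16 (adjusted p = 0.351, edgeR).

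Of 28 interferon-stimulated genes, 11 rose and 2 fell in LEF1_TCF7dKO against WT (all genes: 18.0% and 19.6%), with a median of 1.17, and 0 passed in LEF1cKO against WT. Oas2, an antiviral enzyme, had 2.23 and 1.87 TPM in LEF1_TCF7dKO, 0.53 and 1.03 in LEF1cKO, and 0.24 and 0.04 in WT (4.07 ± 0.69, adjusted p = 0.00807, edgeR). The chemokine Cxcl9, a standard target of interferon-gamma, had 0.93 and 1.34 TPM in LEF1_TCF7dKO, 3.06 and 3.96 in LEF1cKO, and 8.01 and 4.52 in WT, and fell by 2.36 ± 0.40 (adjusted p = 0.00782, edgeR). Its relative Cxcl10 fell by 0.59 ± 0.17 (edgeR adjusted p = 0.0416), a call lost with library size only (0.0765) and with 1 library left out (at most 0.21). Both chemokines were lowest in LEF1_TCF7dKO, whereas 24 of the 28 genes had a positive difference against WT and 4 a negative one. The part of interferon in the MHC levels was not tested.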

How the data were processed

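Messenger RNA of 6 libraries was sequenced, in pairs per the labels' protocols. The submitters' processing notes name RSEM 1.2.30, Bowtie2 2.2.9 and mm10. No annotation release is named there. The expected counts per gene, not normalized, are RSEM estimates as deposited by the authors. The TPM values were scaled by the authors with RSEM for effective length and library, per the file headers. The FPKM values deposited by the authors were not used. Effective length was length minus 50 bases in 100% of values deposited by the authors, which is what single reads of 51 bases would give and differs from the paired label. Windows of 51 bases were used for read sharing on that ground. The 92 spike-in rows held 0 counts and were dropped.

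After rounding, the expected counts went into edgeR 4.0.16 under R 4.3.3 (TMM, filterByExpr by group, quasi-likelihood F test, all 6 libraries in 1 fit with 3 residual degrees of freedom, Benjamini-Hochberg at 0.05 over 19640 genes). Alternatives were RLE factors, library size only, no filter, 10 CPM in 2 libraries, DESeq2 1.42.0, limma 3.58.1 (voom, log2(TPM + 1), log2(TPM + 0.1)), only the groups compared, a replicate block, an effective length offset and each library left out. Simulated data with 67 genes changed 2-fold gave 22.4% of them back for LEF1_TCF7dKO against WT and 17.9% for LEF1cKO against WT, and 59.1% of 66 genes changed 4-fold in each. Of 66 and 65 calls there, 10 and 14 were false, a larger share than the threshold of 0.05. Far fewer genes were changed in these simulations than were called in the data for LEF1_TCF7dKO against WT. The shares found may thus not apply to that comparison.

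A count of 0 allows up to 3 counts, or 0.0475 to 0.0741 CPM, by counting error only. Positions, biotypes and windows of 51 bases shared between genes came from GENCODE M21 (GRCm38), and promoters from RefSeq GRCm38.p6. Members with a mean of at least 1 TPM in a group were named, lower ones where they passed. In each list up to 4 genes with the smallest p were to be named; not all are printed, and Ctss, Cd1d1, Mr1, Psme1 to Psme3, Ulbp1, Psmb8, Psmb9, Cxcl10, Irf1 and the X and Y box values were chosen for their roles after their values were seen. The members and lists were chosen with earlier results of these data known. Some genes are not reported here.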

Additional observations from a re-analysis of the deposited data

How the results depend on the processing

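The number of class II members called in LEF1_TCF7dKO against WT was 8, and 5 to 8 with 1 library left out. The class I number there was 8, with 18 when only the 2 groups compared were fitted and 1 to 18 with 1 library left out. For LEF1_TCF7dKO against LEF1cKO the class II number was 5, with 8 under DESeq2, no filter, log2(TPM + 1) and voom, 1 with the replicate block, and 0 to 7 with 1 library left out. The class I number there was 2, with 10 under DESeq2, 9 with no filter, 5 with the replicate block, 1 with library size only, either TPM scale or only the 2 groups, 0 with the effective length offset, and 0 to 19 with 1 library left out. For LEF1cKO against WT, DESeq2 and no filter each called 3 class I and 2 class II members, and leave-outs gave 0 to 1 in class I. The cause of these shifts was not tested. Same-numbered libraries did not deviate together (correlations -0.042, 0.056 and -0.028), so the numbers were not taken as pairs.

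Of single genes in LEF1cKO against WT, H2-K1 (0.04) turned to -0.07 with the replicate block, -0.10 under voom, -0.004 on log2(TPM + 1) and -0.0043 on log2(TPM + 0.1), and Tap1 (-0.03) to 0.01 with library size only. In LEF1_TCF7dKO against WT, Psmb9 (-0.09) turned to 0.05 with the 10 CPM filter, and Mr1 (-0.04) to 0.04 with library size only, 0.10 with that filter, 0.11 on log2(TPM + 1) and 0.12 on log2(TPM + 0.1). With 1 library left out the sign turned for these values in LEF1cKO against WT: B2m -0.89 to 0.39, Ciita -0.42 to 1.55, H2-D1 -0.87 to 0.07, H2-DMb2 -1.11 to 0.01, H2-K1 -0.73 to 0.55, H2-M3 -0.79 to 0.78, H2-Q4 -0.73 to 0.17, H2-Q5 -0.56 to 0.87, H2-Q6 -1.03 to 1.16, H2-Q7 -0.85 to 0.94, Nlrc5 -0.47 to 0.89, Tap1 -0.44 to 0.30, Tap2 -0.79 to 0.43 and Tapbp -0.36 to 0.70. In LEF1_TCF7dKO against WT they were Cd1d1 -0.14 to 0.54, H2-K2 -0.57 to 0.08, H2-Q10 -0.02 to 0.85, Mr1 -0.08 to 0.02, Psmb8 -0.06 to 0.89, Psmb9 -0.45 to 0.22 and Rfxank -0.03 to 0.11, and in LEF1_TCF7dKO against LEF1cKO H2-Q2 -0.08 to 1.90 and H2-T24 -0.06 to 0.34. None of these had passed the test with all libraries.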
